A study of Homo sapiens with 3 samples.

Results

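The subunits of the vacuolar proton pump, or V-ATPase, were followed in a pooled knockout screen as the guides whose gene name in the count files starts with ATP6V or ATP6AP. These were 240 guides against 24 genes, 10 per gene. The library held 30197 guides in all, which target 2978 genes or, for 499 guide entries among them, intergenic sequence. By textbook subunit names, 13 of the genes encode the V1 domain, 9 the V0 domain and 2 accessory proteins. At least 100 counts in the initial population were required of a guide, which 231 of the 240 reached. The other 9 lay in 8 genes, so that every member kept at least 8 guides, above the minimum of 6 per gene.

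The V-ATPase is a rotary pump that uses ATP to move protons into lysosomes, endosomes, the Golgi and secretory vesicles. V1 is the cytosolic part, where a ring of alternating A and B subunits hydrolyses ATP and turns a central stalk of D and F, while peripheral stalks of E and G, with C, H and the a subunit, hold the ring still. V0 lies in the membrane, where a ring of c subunits carries protons past subunit a. Several subunits are encoded by more than 1 gene, of which 1 is used in most tissues and others mainly in kidney, epididymis, bone, inner ear or brain. A paralog below means another gene for the same subunit. The related ring subunits c and c″ are therefore not counted as paralogs of each other.

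The cells were MIA PaCa-2, a long-established human line of pancreatic ductal adenocarcinoma, transduced with a lentiviral Cas9 knockout library of metabolic genes and selected with puromycin. The groups were cells grown for 14 days in apilimod, which inhibits PIKfyve, a lipid kinase of endosomes and lysosomes, cells grown for 14 days in the solvent DMSO, and the initial population at day 0. The labels give 200 nM apilimod, and the study's methods name another concentration, so the dose is not settled here; a screen at a higher dose was not analysed. Each group was 1 library, so no difference below has a replicate check, and every p-value compares guides within these libraries, not conditions.

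The libraries held 25599416 counts in apilimod, 26276517 in DMSO and 24695476 in the initial population. A guide's log2 change is its share of the library total after 14 days over its share at day 0, with 1 count added to each, and a gene score is the mean of that over the gene's guides. The 487 intergenic guides that passed the minimum had median log2 changes of 0.22 in apilimod and 0.14 in DMSO, with SDs of 0.73 in apilimod and 0.40 in DMSO. Intergenic guides that began with 100 to 199 counts (n = 20) had medians of 1.91 in apilimod and -0.06 in DMSO. The 14 V-ATPase guides in that range had medians of 0.36 in apilimod and -0.83 in DMSO, and their part in the results was not tested beyond the higher count minimum given at the end.

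The guide sequences were not used here, so the places where guides of this family can cut more than 1 locus were looked up in the genome instead. All sites of 20 bases followed by NGG that cut inside the coding sequence of each gene were taken from hg38 with the GENCODE 44 annotation, and exact copies were sought on the other loci of the main chromosomes. In ATP6V0C, which encodes the c subunit, 21 of 91 sites (23.1%) had a copy, 15 of them in the pseudogene ATP6V0CP3. The share was 28 of 68 (41.2%) in ATP6V1E1, which encodes the E stalk, with 16 sites in ATP6V1E1P1, 15 of 70 (21.4%) in ATP6V1F and 26 of 122 (21.3%) in ATP6AP2. It was 11.8% in ATP6V0E1, 10.5% in ATP6V1G1 and at most 3.14% in the other 18 members. ATP6V1B1 and ATP6V1E2, paralogs that are described below, had 0 sites with an exact copy. In contrast, ATP6V0A1 and ATP6V0A4 shared 5 sites, and ATP6V0A4 and TCIRG1 shared 5. Copies with mismatched bases were not sought, so cuts at such places were not assessed for any member. The sites below are shown because they make these shared targets visible. They are candidates in the reference genome and not known to be guides of the library. Capitals mark the NGG motif that Cas9 needs, and each runs 5′ to 3′.
ATP6V0C (coding, chr16:2514124-2514146, minus strand), also in ATP6V0CP3 (chr6:42727254-42727276): cgaaaaacgaagcatactcgGGG
ATP6V1E1 (coding, chr22:17619470-17619492, plus strand), also in ATP6V1E1P1 (chr1:42903299-42903321): tatttcttctgctttctcatTGG
ATP6V1F (coding, chr7:128862949-128862971, plus strand), also at a copy inside SENP1 (chr12:48085106-48085128): cacggtgactggtttcctgcTGG
ATP6V0A1 (coding, chr17:42513892-42513914, minus strand), also in ATP6V0A4 (chr7:138715828-138715850): gcagtactcgatggtgtggaTGG
ATP6V0A4 (coding, chr7:138732937-138732959, plus strand), also in TCIRG1 (chr11:68049215-68049237): gaagtggatgaggatgctggGGG

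V-ATPase guides as a whole lost share in both arms. They held 0.683% of all counts in apilimod (Wilson 95% interval 0.680 to 0.686%, counting error only), 0.668% in DMSO (0.665 to 0.671%) and 0.919% in the initial population (0.915 to 0.923%). Counts are PCR copies without molecular identifiers, not independent cells. To make calls, the guides of a gene were ranked among the intergenic guides (exact rank-sum test, two-sided, Benjamini-Hochberg adjustment) for all 2969 genes scored, with calls made below an adjusted p of 0.05. In apilimod 14 of 24 members were lower and 0 higher, where 29.0% of all genes were lower and 0.236% higher. In DMSO 16 of 24 were lower and 0 higher, where 18.9% of all genes were lower and 0.842% higher. With all other gene-targeting guides as the null in place of the intergenic ones, 10 of 24 were lower and 0 higher in apilimod, where 7.58% of all genes were lower and 2.76% higher. In DMSO that null left 13 of 24 lower and 0 higher, where 7.48% of all genes were lower and 1.68% higher. Both arms share the initial population, so they are not independent. The median member score was -0.67 in apilimod and -0.76 in DMSO, beside -0.04 in apilimod and -0.03 in DMSO over all genes.

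The loss was carried by a subset of genes and, within most genes, not by every guide. Of the 231 guides, 101 (43.7%) lay below the central 95% of the intergenic guides in apilimod and 100 (43.3%) in DMSO, against 14.5% of all gene-targeting guides in apilimod and 13.5% in DMSO. Guides left with under 10% of their initial share numbered 15 of 231 (6.49%) in apilimod and 16 of 231 (6.93%) in DMSO. Among all gene-targeting guides that share was 1.12% in apilimod and 0.849% in DMSO, and 0 of 487 intergenic guides fell that far in either arm.

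The lowest score of the family belonged to the proton-carrying ring of V0. ATP6V0C, the main c subunit, had 1357 counts over its 10 guides in apilimod, 1892 in DMSO and 7837 in the initial population. All 10 guides lay below the control range in both arms. Its score was -3.96 ± 2.51 in apilimod and -3.12 ± 1.69 in DMSO (SD, n = 10 guides), the lowest of all 2969 genes in apilimod and rank 8 in DMSO. The adjusted p of the exact rank-sum test was 4.98e-15 in apilimod and 5.99e-17 in DMSO. Some of its candidate sites occur in pseudogenes, as do some of ATP6V1E1, ATP6V1F and ATP6AP2, and the part of extra cuts in the scores of these genes was not tested.

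Single ATP6V0C guides differed widely in how far they fell. Guide 5 had 0 counts in apilimod, 9 in DMSO and 380 at day 0, which is at least 131-fold lower in apilimod if up to 3 counts are allowed for. Guide 8 had 0 counts in apilimod, 12 in DMSO and 157 at day 0, at least 54.2-fold lower in apilimod. Guide 2 went the other way between the arms, with 80 counts in apilimod, 4 in DMSO and 368 at day 0. Among the guides that changed least were guide 3, with 264 counts in apilimod, 283 in DMSO and 702 at day 0, and guide 10, with 377 counts in apilimod, 392 in DMSO and 1131 at day 0. The remaining guides had 5 to 344 counts in apilimod and 10 to 703 in DMSO, from 179 to 2757 at day 0.

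ATP6V0B, the only gene for the c″ subunit of the same ring, had the lowest z of apilimod minus DMSO among the members. Its 10 guides held 3347 counts in apilimod, 4711 in DMSO and 9357 at day 0, and all 10 were below the control median in each arm. The score was -2.14 ± 1.47 in apilimod (adjusted p = 1.45e-12, exact rank-sum test) and -1.41 ± 1.08 in DMSO (adjusted p = 3.65e-10; SD, n = 10 guides). Guide 7 was the lowest, with 8 counts in apilimod, 31 in DMSO and 450 at day 0. Guide 6 separated the arms, with 62 counts in apilimod, 211 in DMSO and 233 at day 0, and guide 5 likewise had 227 counts in apilimod, 762 in DMSO and 1469 at day 0. Guide 2 ran against them, with 280 counts in apilimod, 120 in DMSO and 534 at day 0. Guide 9, which fell least in apilimod, had 712 counts there, 833 in DMSO and 1088 at day 0.

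Subunit d links the c ring to the central stalk. Its ubiquitous gene ATP6V0D1 was lower in both arms, at -1.25 ± 1.31 in apilimod (adjusted p = 0.00082) and -1.84 ± 2.15 in DMSO (adjusted p = 4.48e-07, exact rank-sum test; SD, n = 9 guides). It had the highest z of apilimod minus DMSO among the members, 2.82. Guide 7, with the widest difference between the arms, had 33 counts in apilimod, 0 in DMSO and 144 at day 0, at least 51.1-fold lower in DMSO, while the other 8 guides spanned log2 changes that reached 0.94 in apilimod and 0.06 in DMSO. Guide 3 was more typical, with 96 counts in apilimod, 110 in DMSO and 452 at day 0. Guides 1 and 4 ran the other way from guide 7, with 217 and 158 counts in apilimod, 544 and 386 in DMSO, and 1275 and 1088 at day 0. The median guide was at -1.32 in both arms. The restricted paralog ATP6V0D2, known from osteoclasts and kidney, was at 0.40 ± 0.87 in apilimod and 0.14 ± 0.30 in DMSO (SD, n = 10 guides), and none of its guides was below the control range in either arm. Its guide 6, with 1801 counts in apilimod, 246 in DMSO and 299 at day 0, lay above that range in apilimod.

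Subunit a forms the proton path beside the ring and has 4 genes, of which the third, TCIRG1, does not carry the prefix. ATP6V0A1 was called lower in DMSO, at -0.72 ± 0.76 with 9 of 10 guides below the control median (adjusted p = 0.000327, exact rank-sum test). In apilimod it was at -0.05 ± 1.15, with an adjusted p of 0.198. Guide 5 had 1807 counts in apilimod, 165 in DMSO and 411 at day 0, and guide 8 had 577 counts in apilimod, 402 in DMSO and 208 at day 0. ATP6V0A2 was at -0.03 ± 0.96 in apilimod and -0.12 ± 0.66 in DMSO, and ATP6V0A4, used mainly in kidney, at 0.27 ± 0.40 in apilimod and 0.14 ± 0.43 in DMSO (SD, n = 10 guides each), none of them called. TCIRG1, best known from osteoclasts, was called lower in apilimod at -0.35 ± 0.81 (adjusted p = 0.0292) and had -0.11 ± 0.59 in DMSO (adjusted p = 0.623, exact rank-sum test; SD, n = 9 guides). Of the 9 TCIRG1 guides, 1 lay below the control range in apilimod and 2 in DMSO. In apilimod 29.0% of all genes were called lower, and the TCIRG1 call with all other guides as the null is not given here. No single gene for subunit a was thus as low as the genes of the ring.

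Subunit e, a small membrane protein, moved little. ATP6V0E1 was at 0.05 ± 0.68 in apilimod and -0.03 ± 0.20 in DMSO (SD, n = 10 guides), and ATP6V0E2 at 0.07 ± 0.42 in apilimod and 0.24 ± 0.34 in DMSO (SD, n = 9 guides). Neither was called in an arm, and 0 guides of either gene lay below the control range. One ATP6V0E1 guide stood apart, guide 9, with 1449 counts in apilimod, 430 in DMSO and 470 at day 0.

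In V1, both genes of the catalytic ring used in most tissues were among the lowest. ATP6V1A, the catalytic A subunit, had 2454 counts over 10 guides in apilimod, 2946 in DMSO and 9079 at day 0. Its score was -2.46 ± 1.13 in apilimod (adjusted p = 7.25e-14) and -1.98 ± 1.07 in DMSO (adjusted p = 6.5e-14, exact rank-sum test; SD, n = 10 guides), with all 10 guides below the control median in both arms. Its spread over guides in apilimod was the smallest of the 4 lowest members there. The most depleted guide in apilimod, guide 7, had 17 counts there, 127 in DMSO and 325 at day 0, and guide 5, the most depleted in DMSO, had 116 counts in apilimod, 114 in DMSO and 1238 at day 0. Guide 4 was higher in apilimod, with 421 counts, than in DMSO, with 114, from 845 at day 0, and guide 10 the reverse, with 93 counts in apilimod, 471 in DMSO and 698 at day 0.

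ATP6V1B2, the ubiquitous B subunit, had 2102 counts in apilimod, 2258 in DMSO and 8100 at day 0. It scored -2.05 ± 1.36 in apilimod (adjusted p = 3.64e-10) and -2.53 ± 2.48 in DMSO (adjusted p = 1.64e-05, exact rank-sum test; SD, n = 10 guides). Guide 3, with 62 counts in apilimod, 2 in DMSO and 958 at day 0, had a log2 change of -6.44 relative to the median guide of its gene in DMSO and widened the gap between the arms. The median guide was at -1.97 in both arms. Guide 10 had 186 counts in apilimod, 194 in DMSO and 2166 at day 0, while guide 1 had 190 counts in apilimod, 308 in DMSO and 229 at day 0.

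ATP6V1B1, the B subunit of kidney and inner ear cells, was called lower in both arms although it is counted among the restricted genes. It was at -0.61 ± 0.88 in apilimod, with 9 of 10 guides below the control median (adjusted p = 0.00019), and at -0.38 ± 0.46 in DMSO, with 8 of 10 (adjusted p = 0.00282, exact rank-sum test; SD, n = 10 guides). Only 2 guides in apilimod and 3 in DMSO lay below the control range. The lowest, guide 5, had 47 counts in apilimod, 168 in DMSO and 357 at day 0. With all other guides as the null in place of the intergenic guides, the call ended in both arms (adjusted p = 0.169 in apilimod and 0.283 in DMSO, exact rank-sum test).

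The central stalk, which has no paralogs, was depleted in both of its subunits. ATP6V1D held 4137 counts over 10 guides in apilimod, 5137 in DMSO and 12518 at day 0. It was at -2.45 ± 2.90 in apilimod (adjusted p = 8.72e-11) and -1.78 ± 1.76 in DMSO (adjusted p = 1.06e-08, exact rank-sum test; SD, n = 10 guides), and all 10 guides were below the control median in both arms. Much of its lower mean in apilimod came from guide 9, with 0 counts in apilimod, 18 in DMSO and 1171 at day 0, at least 405-fold lower in apilimod. That guide stood at -8.89 relative to the median guide of the gene, the widest gap of any V-ATPase guide. The median guides were close, at -1.35 in apilimod and -1.44 in DMSO. Guide 4 had 186 counts in apilimod, 239 in DMSO and 1646 at day 0, and guide 10, the weakest, had 834 counts in apilimod, 934 in DMSO and 1002 at day 0.

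ATP6V1F was at -2.06 ± 2.12 in apilimod (adjusted p = 2.54e-05) and -1.84 ± 2.17 in DMSO (adjusted p = 0.00114, exact rank-sum test; SD, n = 9 guides). Guide 8 had 0 counts in apilimod, 0 in DMSO and 113 at day 0, at least 39.0-fold lower in apilimod and 40.1-fold lower in DMSO. Guides 6 and 10 did not lose share, with 1631 and 1577 counts in apilimod, 1972 and 1739 in DMSO, and 1491 and 1374 at day 0. Guides against the same subunit thus ranged over more than the whole span of the family's gene scores.

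Among the peripheral stalks, the ubiquitous genes were lower in both arms but by different amounts. ATP6V1C1, the collar subunit, was at -1.29 ± 1.42 in apilimod (adjusted p = 0.00366) and -1.53 ± 0.68 in DMSO (adjusted p = 4.25e-14, exact rank-sum test; SD, n = 10 guides). ATP6V1E1 was at -0.58 ± 1.34 in apilimod and -0.79 ± 0.79 in DMSO (SD, n = 10 guides), and ATP6V1G1 at -0.73 ± 0.81 in apilimod and -0.68 ± 0.69 in DMSO (SD, n = 9 guides). With all other guides as the null, ATP6V1C1 and ATP6V1E1 lost their calls in apilimod (adjusted p = 0.0967 and 0.234) and ATP6V1G1 lost its calls in both arms (adjusted p = 0.101 in apilimod and 0.067 in DMSO, exact rank-sum test). The spread of ATP6V1C1 and ATP6V1E1 over guides was wider in apilimod. In ATP6V1E1 this came with guide 7, which had 542 counts in apilimod, 73 in DMSO and 101 at day 0. ATP6V1H, which joins the stalks to the ring and has no paralog, was at -1.31 ± 1.10 in apilimod (adjusted p = 3.86e-05) and -1.49 ± 1.05 in DMSO (adjusted p = 1.12e-09, exact rank-sum test; SD, n = 10 guides).

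Of the restricted stalk genes, 1 call was made in 1 arm. ATP6V1E2, known from testis, was called lower in DMSO at -0.43 ± 0.61 (adjusted p = 0.00995) and was at -0.32 ± 0.89 in apilimod (adjusted p = 0.128, exact rank-sum test; SD, n = 9 guides). Its call in DMSO ended with all other guides as the null (adjusted p = 0.357, exact rank-sum test). ATP6V1C2 was at -0.03 ± 0.44 in apilimod and 0.07 ± 0.42 in DMSO, and ATP6V1G3, a kidney form, at 0.34 ± 0.85 in apilimod and 0.35 ± 0.59 in DMSO (SD, n = 9 guides for ATP6V1C2 and 10 for ATP6V1G3). ATP6V1G2, the neuronal G subunit, showed how 1 guide can set a mean, with -0.04 ± 1.01 in apilimod and -0.74 ± 2.14 in DMSO (SD, n = 8 guides) and adjusted p-values of 0.998 in apilimod and 0.244 in DMSO (exact rank-sum test). Its guide 7 had 142 counts in apilimod, 8 in DMSO and 525 at day 0, and the median guide was at 0.40 in apilimod and -0.15 in DMSO.

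Both accessory proteins were depleted. ATP6AP1 (Ac45), which assists assembly of V0, was at -1.37 ± 1.38 in apilimod (adjusted p = 0.000762) and -1.68 ± 1.85 in DMSO (adjusted p = 0.000102, exact rank-sum test; SD, n = 9 guides). ATP6AP2, the (pro)renin receptor, was at -1.82 ± 2.07 in apilimod (adjusted p = 3.43e-07) and -1.47 ± 0.99 in DMSO (adjusted p = 4.48e-07, exact rank-sum test; SD, n = 10 guides). ATP6AP2 guide 6 had 0 counts in apilimod, 49 in DMSO and 120 at day 0, at least 41.5-fold lower in apilimod. The median guide of ATP6AP2 was at -1.38 in apilimod and -1.49 in DMSO, so the order of the arms was the reverse of that of the means. ATP6AP1 guide 6 fell in both arms, with 46 counts in apilimod, 15 in DMSO and 828 at day 0.

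Set by domain, V1 held more calls than V0, whose share in apilimod was near that of all genes, and the domains differ in their share of paralogs. In apilimod 9 of 13 V1 genes and 3 of 9 V0 genes were lower, with median scores of -0.73 for V1 and -0.03 for V0. That is 69.2% of V1 and 33.3% of V0 genes, where 29.0% of all genes were lower. In DMSO 10 of 13 V1 genes and 4 of 9 V0 genes were lower, with medians of -0.79 for V1 and -0.12 for V0, which is 76.9% of V1 and 44.4% of V0 genes, where 18.9% of all genes were lower. Without the restricted genes, 8 of 8 V1 genes and 3 of 6 V0 genes were lower in apilimod, with medians of -1.68 for V1 and -0.65 for V0, and 8 of 8 V1 genes and 4 of 6 V0 genes in DMSO, with medians of -1.65 for V1 and -1.06 for V0. The V0 genes ran over a wider range, from -3.96 for ATP6V0C to 0.40 for ATP6V0D2 in apilimod. Of V1 guides 48.4% in apilimod and 47.6% in DMSO lay below the control range, and of V0 guides 31.8% in each arm. No test was made between the domains, whose genes are not replicates of each other.

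Set by paralogs, the genes without one stood lowest and the restricted ones stood near the library's median. All 6 genes without a paralog (A, D, F and H of V1, c and c″ of V0) were lower in both arms, with median scores of -2.29 in apilimod and -1.81 in DMSO. Of the 8 ubiquitous paralogs, 5 were lower in apilimod and 6 in DMSO, with medians of -0.65 in apilimod and -0.75 in DMSO. Of the 8 restricted paralogs, 1 was lower in apilimod and 2 in DMSO, with medians of 0.02 in apilimod and 0.10 in DMSO, against 29.0% of all genes lower in apilimod and 18.9% in DMSO. The grouping is from textbook knowledge, and ATP6V0A1 and ATP6V0E2 are borderline. With these genes exchanged, 5 of 8 ubiquitous and 1 of 8 restricted genes were lower in apilimod, with medians of -0.65 for ubiquitous and -0.04 for restricted genes. In DMSO the exchange gave 5 of 8 ubiquitous and 3 of 8 restricted genes lower, with medians of -0.74 for ubiquitous and -0.16 for restricted genes. Guides below the control range made up 84.7% of the 59 guides of genes without a paralog, 38.5% of the 78 guides of ubiquitous paralogs and 10.7% of the 75 guides of restricted ones in apilimod. In DMSO the shares were 74.6% for genes without a paralog, 47.4% for ubiquitous and 8.00% for restricted ones.

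Within pairs, each guide of the ubiquitous gene was compared with each guide of its restricted paralog. The d and C subunits gave the clearest separation in DMSO, the ubiquitous gene being lower in 77 of 90 guide pairs (85.6%) in apilimod and 86 of 90 (95.6%) in DMSO for ATP6V0D1 over ATP6V0D2, and in 67 of 90 (74.4%) in apilimod and 89 of 90 (98.9%) in DMSO for ATP6V1C1 over ATP6V1C2. ATP6V1B2 was lower than ATP6V1B1 in 82 of 100 pairs in each arm. The E pair was the closest to even in DMSO, with ATP6V1E1 lower than ATP6V1E2 in 58 of 90 pairs (64.4%) in apilimod and 57 of 90 (63.3%) in DMSO, and the e pair was closest in apilimod, with 57.8%. ATP6V1G1 was lower than ATP6V1G2 in 70.8% of pairs in DMSO even though its mean score was 0.05 higher there, the mean of ATP6V1G2 being set by guide 7. Over all 9 pairs the ubiquitous gene was lower in 71.8% of guide pairs in apilimod and 80.5% in DMSO. ATP6V0A4 and ATP6V1G1 each enter more than 1 of these pairs, so their guides weigh more in these shares. Guides of 1 gene share its locus, so these shares carry no test.

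Between apilimod and DMSO no V-ATPase gene was called. For this comparison the changes of each arm were scaled so that intergenic guides had a median of 0 and a list of 26 nucleotide synthesis genes a median of -1, and z is the difference of scaled gene scores, apilimod minus DMSO, in SDs over all genes. By the exact rank-sum test on scaled guide differences 0 of 24 members were lower and 0 higher, where 0.573% of all genes were lower and 0.0674% higher, and 2 members (8.33%) had an unadjusted p under 0.05, as did 11.0% of all genes. Those 2 are given for their values only, since their number is below the library's share. ATP6V0A1 had a z of 2.60, with 9 of 10 guides above the control median (adjusted p = 0.148), and ATP6V0B a z of -1.96, with 8 of 10 guides below (adjusted p = 0.158, exact rank-sum test). The apilimod minus DMSO log2 score was 0.67 ± 1.04 for ATP6V0A1 and -0.73 ± 0.97 for ATP6V0B (SD, n = 10 guides).

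The other members with a z past 1.5 in size were spread over the complex. The share of all genes past that size was not counted, so the number of such members is not read as a result. ATP6V1B2 (2.72), ATP6V1G2 (2.71) and ATP6AP1 (1.77) joined ATP6V0D1 and ATP6V0A1 on the higher side, and ATP6V0C (-1.62) and ATP6V1D (-1.59) joined ATP6V0B on the lower side. Their adjusted p-values lay between 0.501 for ATP6V1G2 and 0.740 for ATP6V1D (exact rank-sum test). In ATP6V0D1, ATP6V1B2 and ATP6V1G2 the guide with the largest difference was 1 with 8 counts or fewer in DMSO, as given above. By guides and without the scaling, 32 of 231 (13.9%) lay below the control range of apilimod minus DMSO, against 10.6% of all gene-targeting guides. On the other side 7 (3.03%) lay above it, against 0.670%. That control range ran from -0.73 to 2.59, so a guide had to differ far more to lie above it than below it. Guides that stand apart thus lie on both sides, but the counts of the sides are not comparable with each other.

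Other pump families of the library are given beside the share of all genes called lower, 29.0% in apilimod and 18.9% in DMSO. The mitochondrial ATP synthase is built like the V-ATPase but makes ATP. It was represented by 19 genes, ATPIF1 and those with symbols starting with ATP5. That rule also takes in genes that are not its subunits, such as ATPIF1 and ATP5SL. ATP5SL was called lower in both arms (adjusted p = 6.63e-06 in apilimod and 0.0259 in DMSO, exact rank-sum test). Of the 19 genes, 11 were lower in apilimod and 11 in DMSO (57.9% in each arm), with median scores of -0.56 in apilimod and -0.46 in DMSO. The lowest of them, ATP5D, was at -2.01 ± 1.78 in apilimod and -1.85 ± 1.36 in DMSO (SD, n = 10 guides). Of 41 P-type ATPases 8 were lower in each arm (19.5%), with medians of -0.08 in apilimod and -0.03 in DMSO, near those of all genes. ATP2A2, the calcium pump of the endoplasmic reticulum, was called lower in both arms, at -1.89 ± 0.87 in apilimod and -2.40 ± 1.65 in DMSO (SD, n = 9 guides).

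Genes that share the lysosome with the pump came next. Of 19 measured lysosomal channels and transporters 4 (21.1%) were lower in apilimod, where 29.0% of all genes were, and 2 (10.5%) in DMSO, where 18.9% were, none higher, with medians of -0.07 in apilimod and -0.01 in DMSO. CLCN6, a late endosomal chloride-proton exchanger, was at -0.998 ± 1.18 in apilimod (adjusted p = 8.79e-05) and -0.28 ± 0.53 in DMSO (adjusted p = 0.03, exact rank-sum test; SD, n = 10 guides), and CLCN4, a related exchanger, at -0.37 ± 0.63 in apilimod and -0.55 ± 0.62 in DMSO (SD, n = 10 guides). CLCN7, the lysosomal exchanger, was not called, at 0.41 ± 0.59 in apilimod and -0.25 ± 0.54 in DMSO (SD, n = 10 guides). PIKFYVE, the target of apilimod, was at -0.13 ± 0.33 in apilimod (adjusted p = 0.0482) and 0.08 ± 0.43 in DMSO (adjusted p = 0.911, exact rank-sum test; SD, n = 9 guides). Its partner FIG4 was at 0.22 ± 0.93 in apilimod and 0.07 ± 0.58 in DMSO (SD, n = 9 guides). Of the 18 guides of PIKFYVE and FIG4, 0 lay below the control range in apilimod and 1 in DMSO. The PIKFYVE call with all other guides as the null is not given here. Other V-ATPase proteins and assembly factors without the prefix were listed by 12 symbols, of which TCIRG1 alone was measured.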

How the data were processed

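Guide abundances were measured in genomic DNA of 3 libraries, 1 per group. The files as deposited held unnormalized counts of reads for each guide. According to the study's methods and the submitters' processing notes, the authors trimmed both mates separately with cutadapt 4.1, combined them, aligned them to the guides inside vector sequence with Bowtie2 2.4.5 and used MAGeCK 0.5.9.5 for counting; bcl2fastq is named without a version. The table of the whole series and the single files differed in 0 values.

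Filtering and scoring took the steps of the study's methods, with a pseudocount of 1 and library totals: at least 100 initial counts per guide and 6 guides per gene, leaving 28042 guides of 2969 genes and 487 intergenic guides. The -1 reference, nucleotide synthesis genes, was chosen here. Rank-sum tests were exact and two-sided, with Benjamini-Hochberg adjustment over all genes, and were tested on simulated data. Besides counting error, the simulation gave every guide of an arm the same symmetric noise, whatever its initial counts. It therefore does not check the calls under the rise of low-count intergenic guides seen in apilimod. Python 3.11.15 with numpy, pandas and scipy was used. Count models need replicates and were not fitted. Intervals are Wilson intervals.

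The members and gene lists were chosen with earlier results of these data known. Domains and tissue distribution came from textbook knowledge. Every member is accounted for. Single guides are named for the 4 members of lowest score in each arm, those of lowest and highest z, and guides far from the others of their gene. A few further guides were named after their values were seen.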

Additional observations from a re-analysis of the deposited data

How the results depend on the processing

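Over 10 alternatives each, 10 to 15 members were called lower in apilimod and 13 to 16 in DMSO, and no call turned its direction. The lowest count in each arm came with all other guides, not the intergenic guides, as the null. With that null 7.58% of all genes were lower in apilimod and 7.48% in DMSO. ATP6V1B1, ATP6V1C1, ATP6V1E1 and ATP6V1G1 then lost their calls in apilimod, which left 10 members lower. In DMSO ATP6V1B1, ATP6V1E2 and ATP6V1G1 lost theirs, which left 13. The share of all genes under the other alternatives was not counted. With a minimum of 300 initial counts ATP6V0A2 was also called lower in apilimod (adjusted p = 0.0382, exact rank-sum test), and the ubiquitous gene was lower in 76.6% of paralog guide pairs. With N-glycosylation genes as the -1 reference, 1 member, ATP6V0A1, was called higher in apilimod than in DMSO (adjusted p = 0.0315, exact rank-sum test). Over its 12 alternatives that p ran from 0.0315 to 0.472. The share of all genes called higher with that reference was not counted, so this call is not read as particular to ATP6V0A1. Without tissue-restricted genes the domain medians moved in apilimod to -0.65 for V0 and -1.68 for V1, and in DMSO to -1.06 for V0 and -1.65 for V1. Taking guides at 0 counts as 3 counts, an alternative chosen after seeing the data, moved no call. The causes were not tested.

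No paired analysis was possible because each group is 1 library. With 1 library per group, neither culture-to-culture spread nor the effect of treatment on it was measured. Guides with few initial counts carry the widest errors.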
